A study of Mus musculus with 8 samples.

Results

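Fgl2, Metrnl, Areg, Penk, Mmp9, Tgm2 and Klrg1 encode effector molecules that regulatory T cells (Tregs) release or display to suppress immune cells or to act on the tissue around them. These 7 genes, of 47069 Ensembl genes listed in both deposited expression tables, were picked by name from a comparison of the same libraries, so their difference between the populations is described here and carries no test. Fgl2, Metrnl, Mmp9 and Klrg1 were lower, and Tgm2 was higher, in every Ebi3-Treg library than in any Blimp1-Treg library, whereas the ranges of Areg and Penk overlapped. The name secreted effectors holds only in part, because Klrg1 encodes a membrane receptor and the enzyme encoded by Tgm2 lacks a classical signal sequence.

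The Ebi3-Treg gate took cells with Thy1.1 and without Blimp1, and the Blimp1-Treg gate took cells with Blimp1 and without Thy1.1, where GFP reports Blimp1, a transcriptional repressor of effector lymphocytes encoded by Prdm1. Both populations were CD4-positive and CD25-positive, and both came from lymph nodes of C57BL/6 mice of 6 to 8 weeks that carried 35EbiT, with Thy1.1 as its marker, together with the Blimp1-GFP knock-in. Each population had 4 RNA libraries, numbered 1 to 4. The labels give neither the number of mice behind a library nor any pooling, and the sort purity they state was typically above 90%, so a p-value speaks only of how far these samples scatter, and that scatter may be technical.

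Tregs suppress through soluble mediators, through surface receptors and through enzymes that change the milieu, and Tregs of non-lymphoid tissue also take part in repair. FGL2 is a secreted member of the fibrinogen family that inhibits antigen-presenting cells through an inhibitory Fc receptor. Amphiregulin, encoded by Areg, is an epidermal growth factor (EGF) family ligand known for the repair function of Tregs, and Penk encodes the precursor of the enkephalin opioid peptides.

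Values are FPKM, fragment numbers scaled to gene length and library depth, and log2 fold changes are differences of log2(FPKM + 1), Ebi3-Treg minus Blimp1-Treg, with their standard error (SE). Depth was 13.3 M to 25.6 M fragments in Ebi3-Treg libraries and 14.7 M to 31.3 M in Blimp1-Treg libraries. The first table held the libraries numbered 1 and 2, the second those numbered 3 and 4. Xist was at 0.0750 FPKM or less in all libraries of the first table and at 18.5 to 24.4 FPKM in all of the second, so the table cannot be told apart from the sex of the mice. Both libraries numbered 1 held B cell transcripts, with a summed level of B cell and plasma cell markers of 219.5 FPKM in Ebi3-Treg 1, 158 FPKM in Blimp1-Treg 1 and 29.2 to 42.1 FPKM elsewhere, and both libraries numbered 2 were lower in Foxp3 (182 and 184 FPKM) than the other libraries (255 to 406 FPKM). Cd3e, Cd4, Foxp3 and Il2ra were at 179.9 FPKM or more in every library.

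Each of the 7 genes reached 1 FPKM in 4 or more libraries, the filter for testing, Tgm2 only through its 4 Ebi3-Treg libraries. Of the 12273 genes tested, 6.29% differed between the populations at an adjusted p under 0.05. In the values themselves 4.50% were lower and 6.63% higher in all Ebi3-Treg than in all Blimp1-Treg libraries, against 4 and 1 of the 7, shares that the choice of the genes fixes. A bulk level cannot tell fewer cells that make a transcript from less transcript per cell.

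**Figure D1:**
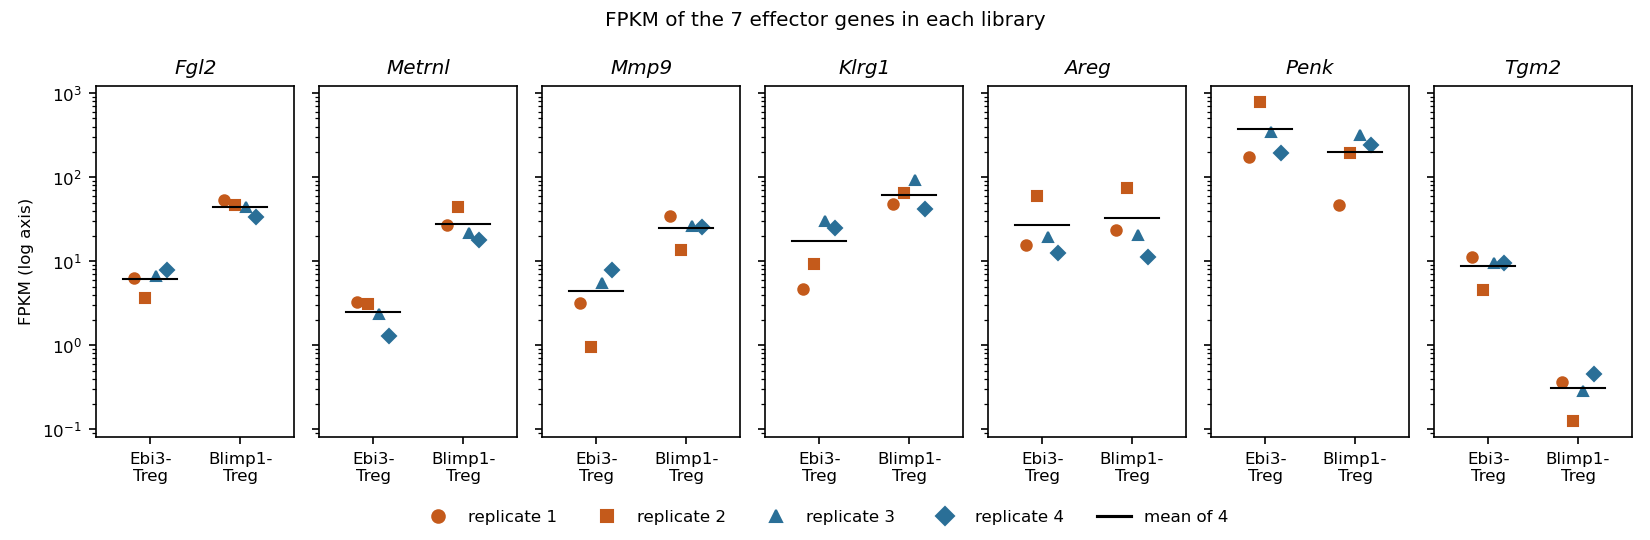
FPKM of each effector gene (log axis) in the 4 Ebi3-Treg and 4 Blimp1-Treg libraries, with symbols for the replicate number, colours for the table and a bar at the mean. The groups do not overlap for Fgl2, Metrnl, Mmp9, Klrg1 and Tgm2, and they overlap for Areg and Penk.

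Fgl2 (ENSMUSG00000039899) had 6.40, 3.62, 6.65 and 7.84 FPKM in Ebi3-Treg 1 to 4, against 53.2, 46.1, 43.6 and 34.0 FPKM in Blimp1-Treg 1 to 4. The lowest Blimp1-Treg library was more than 4 times the highest Ebi3-Treg library. The means were 6.13 ± 1.78 and 44.2 ± 7.96 FPKM (SD, n = 4 each), 7.22-fold lower in Ebi3-Treg, with a log2 fold change of -2.69 (SE 0.24). Between 277 and 656 reads in Ebi3-Treg and between 1892 and 6307 reads in Blimp1-Treg stood behind these values, so counting error is small beside the difference. The genes whose profiles over the 8 libraries were closest to that of Fgl2 were Arl5a, which encodes a small GTPase, and the membrane protein gene Emp1, with root mean square differences of 0.239 and 0.269 between centred log2(FPKM + 1) profiles.

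Metrnl (ENSMUSG00000039208) encodes meteorin-like, a secreted protein of the meteorin family with effects on macrophages and fat tissue. It was at 3.23, 3.06, 2.36 and 1.29 FPKM in Ebi3-Treg 1 to 4 and at 27.3, 44.2, 21.9 and 17.9 FPKM in Blimp1-Treg 1 to 4. Of the genes lower in Ebi3-Treg it had the largest difference here, 11.2-fold between the means of 2.49 ± 0.883 and 27.8 ± 11.6 FPKM (SD, n = 4 each), with a log2 fold change of -3.01 (SE 0.21). The ratio also changed least with the table, with 11.4-fold in replicates 1 and 2 and 10.9-fold in replicates 3 and 4. The Ebi3-Treg values rest on 30 to 87 reads. Since log2(FPKM + 1) understates changes of low genes, the log2 fold change was -3.48 with a pseudocount of 0.01. Its closest profiles were those of Havcr2, the gene of the inhibitory receptor TIM-3, and Gm12169, at root mean square differences of 0.247 and 0.341.

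Upstream sequences from RefSeq (build GRCm38.p6) were looked for in all 7 effector genes. They were found for Fgl2, Metrnl and Areg alone, and these 3 are shown. The build differs from mm9, which the submitters' processing notes name, and sequences were matched by symbol. Each run gives the 250 bases before the annotated start, 5′ to 3′ on the plus strand, at chr5:21372423-21372672 for Fgl2, chr11:121702177-121702426 for Metrnl and chr5:91139349-91139598 for Areg. Capitals mark matches to the motifs searched on both strands, which were TATAAA for the TATA box, TGACGTCA for the cAMP response element, TGANTCA for AP-1, AGNGAAAG for Blimp1, a pair of GAAA with 2 bases between for the interferon response element and TGGAAA for the NFAT core. No 2 matches overlap here.
Fgl2: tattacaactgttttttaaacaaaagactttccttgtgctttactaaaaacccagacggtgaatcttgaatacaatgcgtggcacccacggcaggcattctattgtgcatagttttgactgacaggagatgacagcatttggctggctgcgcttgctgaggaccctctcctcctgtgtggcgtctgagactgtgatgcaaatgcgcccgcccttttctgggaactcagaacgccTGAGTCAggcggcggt
Metrnl: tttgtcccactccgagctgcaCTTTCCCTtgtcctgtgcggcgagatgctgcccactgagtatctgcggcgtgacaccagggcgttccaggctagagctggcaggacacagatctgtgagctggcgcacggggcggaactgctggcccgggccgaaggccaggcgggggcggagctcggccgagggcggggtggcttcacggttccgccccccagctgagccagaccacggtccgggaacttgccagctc
Areg: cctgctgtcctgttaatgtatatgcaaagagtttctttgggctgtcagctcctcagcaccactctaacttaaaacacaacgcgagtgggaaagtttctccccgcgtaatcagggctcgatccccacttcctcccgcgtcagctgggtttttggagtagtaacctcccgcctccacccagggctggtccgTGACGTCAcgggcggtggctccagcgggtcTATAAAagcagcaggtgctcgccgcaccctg

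The Fgl2 run held an AP-1 match that began 16 bases before the start. Metrnl had a match to the Blimp1 letters on the minus strand, first base 229 before the start, in a run of 68.4% G and C. In the Areg run a cAMP response element began 61 and a TATA box 31 bases before the start. Of 32536 distinct RefSeq runs of this length, 6.73% held the AP-1 letters, 7.29% the Blimp1 letters, 1.56% the cAMP response element and 12.3% the TATA box. A match of letters is a description and does not show that a factor binds.

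Areg (ENSMUSG00000029378) did not separate the populations. It had 15.7, 59.3, 19.3 and 12.6 FPKM in Ebi3-Treg 1 to 4, against 23.7, 74.9, 20.5 and 11.2 FPKM in Blimp1-Treg 1 to 4. Replicate 2 was the highest and replicate 4 the lowest in both populations, so the values followed the replicate number more than the population. The means were 26.7 ± 21.9 and 32.6 ± 28.7 FPKM (SD, n = 4 each), and the log2 fold change of -0.21 was smaller than its SE of 0.49 and became 0.21 without Ebi3-Treg 1 and 0.16 without Blimp1-Treg 2. Across the tables Areg had a log2 difference of -1.18 (SE 0.49), replicates 3 and 4 minus 1 and 2, with a limma adjusted p of 0.148, while 8.41% of the genes tested passed that test and 32.3% had an unadjusted p under 0.05. Without both libraries numbered 1 it was -2.04 (adjusted p = 0.000833), without Ebi3-Treg 1 it was -1.60 (0.0303), and without both libraries numbered 2 it was -0.31 (0.518). Of the 12273 genes tested, 7405 passed without both libraries numbered 1 and 3862 without Ebi3-Treg 1, so passing there is common to many genes. Its closest profiles were those of Cir1 and Tex30, with root mean square differences of 0.211 and 0.219.

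Penk (ENSMUSG00000045573) had the highest mean of the 7 genes in both populations, although in Blimp1-Treg 1 it was below Fgl2 and Klrg1. In Ebi3-Treg 1 to 4 it was at 175, 787, 348 and 192 FPKM, and in Blimp1-Treg 1 to 4 at 46.5, 195, 314 and 241 FPKM. Ebi3-Treg was the higher population in replicates 1, 2 and 3 and the lower in replicate 4, and the ranges overlapped. The Ebi3-Treg value was 3.77 and 4.03 times the Blimp1-Treg value of the same number in replicates 1 and 2, against 1.11 and 0.795 times in replicates 3 and 4. Over all libraries the means were 375 ± 285 and 199 ± 113 FPKM (SD, n = 4 each), with a log2 fold change of 0.93 (SE 0.67), made up of 1.95 in the first table and -0.09 in the second. It was 0.29 without Ebi3-Treg 2 and 0.32 without Blimp1-Treg 1. Art3 and Nr4a2 had the profiles closest to that of Penk, with root mean square differences of 0.537 and 0.577.

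Whether the population contrast differed between the tables was tested as an interaction. For Penk it was -2.04 on the log2 scale, replicates 3 and 4 minus replicates 1 and 2, with an SE of 1.22 and an adjusted p of 0.99996 in limma. Blocking on the replicate number left the estimate as it was, its SE was 0.19 and the adjusted p was 0.0385, and Penk was 1 of 13 genes called (0.106% of those tested). Without the block limma called 0 genes (0%), with 203 (1.65%) at an unadjusted p under 0.05. The block draws on the pairing of same-numbered libraries, which deviated together within the first table (r = 0.85 across genes) and not within the second (r = -0.08), and it leaves few residual degrees of freedom. The estimate was -0.96 without Ebi3-Treg 2 and -1.02 without Blimp1-Treg 1, and -3.12 without Ebi3-Treg 1 and -3.06 without Blimp1-Treg 2. No other effector gene passed this test in either fit. Klrg1 came next in size, at 1.73 (SE 0.63, adjusted p = 0.99996, and 0.137 with the block), and Mmp9 was at 1.17 (SE 0.73, adjusted p = 0.99996, and 0.163 with the block).

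**Figure D2:**
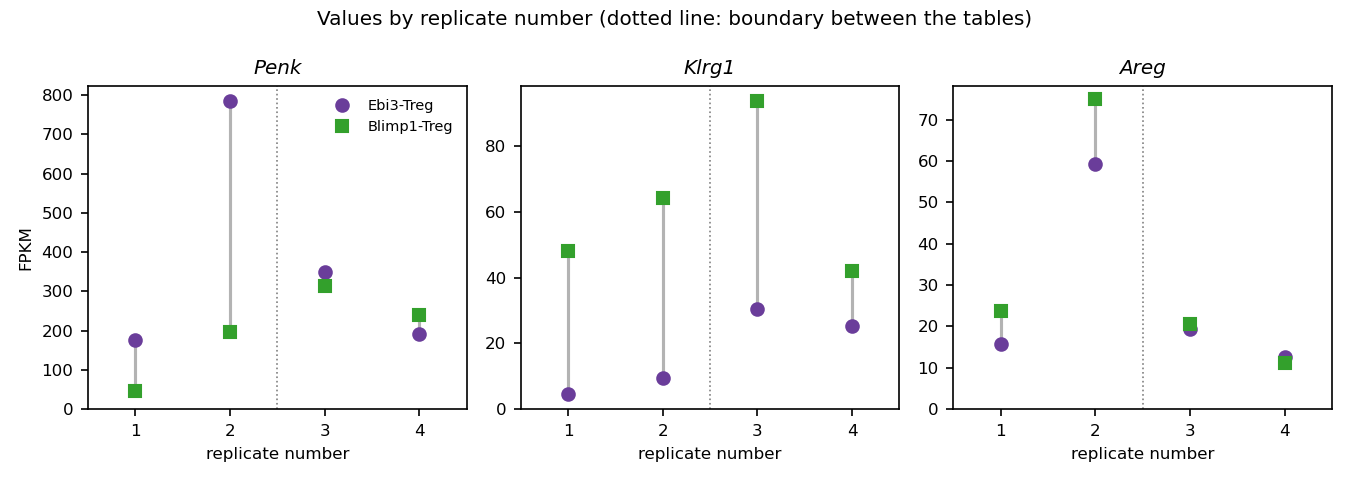
FPKM of Penk, Klrg1 and Areg by replicate number, with Ebi3-Treg as circles and Blimp1-Treg as squares, grey lines joining the same number and a dotted line between the tables. Penk in Ebi3-Treg is 3.77 and 4.03 times that in Blimp1-Treg in replicates 1 and 2 and 1.11 and 0.795 times in replicates 3 and 4, and Areg peaks in replicate 2 of both populations.

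Mmp9 (ENSMUSG00000017737) encodes a secreted gelatinase that cleaves denatured and basement membrane collagen. Its values were 3.17, 0.957, 5.56 and 7.94 FPKM in Ebi3-Treg 1 to 4 and 34.7, 13.5, 26.4 and 25.7 FPKM in Blimp1-Treg 1 to 4. Replicate 2 was the lowest library in both populations, and the groups did not overlap. Means of 4.41 ± 3.01 and 25.1 ± 8.76 FPKM (SD, n = 4 each) differed 5.69-fold, with a log2 fold change of -2.41 (SE 0.40), and the ratio was 11.7-fold in replicates 1 and 2 and 3.86-fold in replicates 3 and 4. Neutrophils also carry Mmp9, and of their 7 markers 5 were under 1 FPKM in every library. The summed level of those markers was 0.551 to 2.92 FPKM in Ebi3-Treg, with 0.640 to 5.32 FPKM in Blimp1-Treg, and the part of such cells in Mmp9 was not tested. The profiles closest to that of Mmp9 were those of Arl5a and Myo1f, with root mean square differences of 0.374 and 0.427.

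Tgm2 (ENSMUSG00000037820), which encodes the cross-linking enzyme transglutaminase 2, was the 1 effector gene of the 7 that was higher in every Ebi3-Treg library. It had 11.4, 4.49, 9.50 and 9.42 FPKM in Ebi3-Treg 1 to 4 and 0.370, 0.125, 0.285 and 0.456 FPKM in Blimp1-Treg 1 to 4. The Ebi3-Treg values rest on 149 to 479 reads and the Blimp1-Treg values on 4 to 19 reads, which makes the size of the ratio less certain than its direction. The means of 8.70 ± 2.95 and 0.309 ± 0.141 FPKM (SD, n = 4 each) differed 28.2-fold, and same-numbered libraries by 20.7 to 36.0-fold. The log2 fold change was 2.83 (SE 0.27) with the pseudocount of 1 and 4.83 with 0.01. The closest profiles were those of Gabrr2, which encodes a GABA receptor subunit, and Lif, which encodes a cytokine of the interleukin-6 family, with root mean square differences of 0.248 and 0.292.

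Macrophages also express Tgm2, Fgl2 and Metrnl. The summed level of macrophage and monocyte markers was higher in Ebi3-Treg than in Blimp1-Treg for each replicate number, but single markers went both ways. The sums were 112, 98.4, 12.3 and 26.2 FPKM in Ebi3-Treg 1 to 4 and 37.0, 17.1, 9.34 and 17.6 FPKM in Blimp1-Treg 1 to 4. Lyz2 was at 99.1, 91.1, 8.00 and 20.4 FPKM in Ebi3-Treg 1 to 4 and at 29.9, 7.90, 3.74 and 8.44 FPKM in Blimp1-Treg 1 to 4. Cd68 was at 5.51, 5.16, 2.61 and 4.19 FPKM in Ebi3-Treg 1 to 4 and at 5.35, 8.63, 4.22 and 7.88 FPKM in Blimp1-Treg 1 to 4. Of the 8 macrophage and monocyte markers 3 stayed under 1 FPKM in every library. Among these, Itgam was higher in Blimp1-Treg (0.144 FPKM or more) than in Ebi3-Treg (0.124 FPKM or less). Adgre1, which encodes the macrophage marker F4/80, was at 1.80, 0.669, 0.448 and 0.498 FPKM in Ebi3-Treg 1 to 4 and at 0.181, 0.0322, 0.0817 and 0.192 FPKM in Blimp1-Treg 1 to 4, with no overlap. The part of such cells in the values was not tested.

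Klrg1 (ENSMUSG00000030114) encodes an inhibitory receptor for cadherins that marks highly differentiated effector lymphocytes. It was at 4.64, 9.36, 30.3 and 25.2 FPKM in Ebi3-Treg 1 to 4, against 48.1, 64.2, 93.8 and 42.1 FPKM in Blimp1-Treg 1 to 4. The Ebi3-Treg libraries split by table, with both of the first below both of the second, and no such split was seen in Blimp1-Treg. Means were 17.4 ± 12.3 and 62.0 ± 23.2 FPKM (SD, n = 4 each), a log2 fold change of -2.02 (SE 0.42), with 8.02-fold in replicates 1 and 2 and 2.45-fold in replicates 3 and 4. NK cells and CD8 T cells carry Klrg1 as well. The NK and innate lymphoid markers summed to 5.33 to 27.3 FPKM in Ebi3-Treg, with 9.04 to 13.4 FPKM in Blimp1-Treg. Of these, Il23r was at 1.96 to 12.1 FPKM in Ebi3-Treg and at 7.15 to 10.3 FPKM in Blimp1-Treg. Ncr1 was at 0.355 to 6.84 FPKM in Ebi3-Treg and at 0.0693 to 0.605 FPKM in Blimp1-Treg. Cd8a was at 0.00 to 7.21 FPKM in Ebi3-Treg, with 0.0582 to 4.73 FPKM in Blimp1-Treg. Cd8b1 was at 8.55 to 32.1 FPKM in Ebi3-Treg, with 7.66 to 25.6 FPKM in Blimp1-Treg. The part of NK and CD8 cells in Klrg1 was not tested. The profiles closest to that of Klrg1 were those of Atp6v0d2 and Ncmap, at root mean square differences of 0.576 and 0.605.

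**Figure D3:**
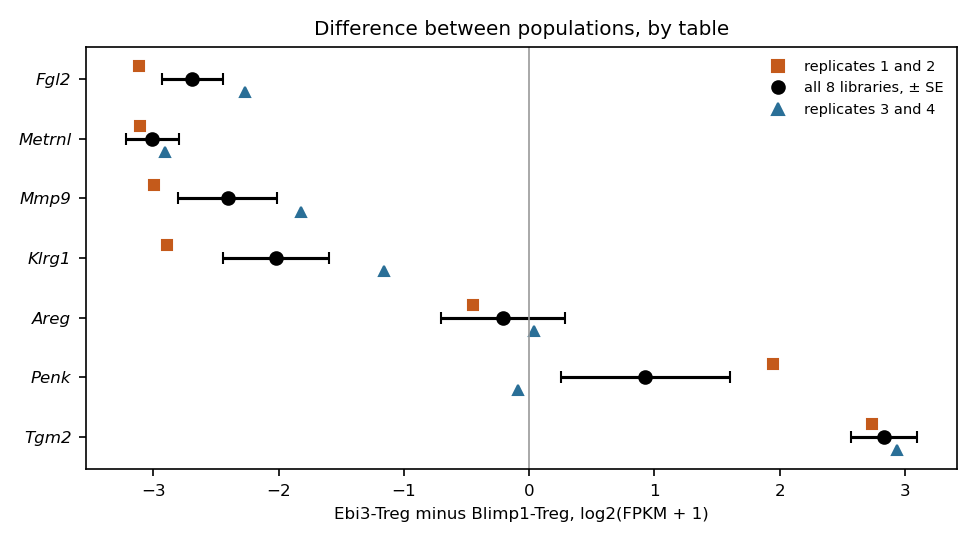
Log2 fold change of each effector gene, Ebi3-Treg less Blimp1-Treg in log2(FPKM + 1), for all 8 libraries with SE (circles), replicates 1 and 2 (squares) and replicates 3 and 4 (triangles). Metrnl and Tgm2 had nearly the same difference in both tables. Penk, Klrg1, Mmp9 and Fgl2 had a larger one in replicates 1 and 2, as had Areg, whose difference was small in both tables.

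The population contrast of Fgl2 was -3.11 in the first table and -2.26 in the second, so Fgl2, Mmp9 and Klrg1 all had the smaller difference in the second table. Between the tables themselves, averaged over both populations, no effector gene passed. The smallest adjusted p was that of Metrnl (0.0840, log2 difference -0.68, SE 0.21), followed by Klrg1 (0.140, 1.04) and Areg. Without both libraries numbered 1 Metrnl (-0.83, adjusted p = 0.0166), Mmp9 (1.44, 0.00355) and Tgm2 (0.61, 0.0492) also passed, a fit that compared replicate 2 alone with replicates 3 and 4. That fit called 7405 of the 12273 genes tested, so passing it sets no gene apart.

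FPKM divides by gene length, so levels of different genes can be set side by side. In Ebi3-Treg the order of mean level was Penk, Areg (26.7 FPKM), Klrg1, Tgm2, Fgl2, Mmp9 and Metrnl. In Blimp1-Treg it was Penk, Klrg1, Fgl2, Areg, Metrnl, Mmp9 and Tgm2. Penk was above 98.3% of the genes tested in Ebi3-Treg and above 95.5% in Blimp1-Treg, and Tgm2 above 36.4% and 0.122%. Since Tgm2 passed the filter only through its Ebi3-Treg libraries, its low place in Blimp1-Treg largely follows from the filter. The ranges of neighbours in this order overlapped in each population, except those of Penk and Areg in Ebi3-Treg and of Mmp9 and Tgm2 in Blimp1-Treg. The deposited values, though, fit a division by the mean length of a gene's annotated transcripts, which is 1295 bases for Mmp9 (longest transcript 3175) and 1643 for Tgm2 (longest 3596). Per kilobase of the longest transcript, mean Mmp9 was 1.80 in Ebi3-Treg and 10.2 in Blimp1-Treg, and mean Tgm2 was 3.98 and 0.141. Fgl2 (6.13) was then above Tgm2, and Metrnl (1.87) above Mmp9, in Ebi3-Treg, whereas the order in Blimp1-Treg was the same with both lengths. Plain ratios of FPKM between populations do not depend on the length, as long as the same length is used for both. Fold changes on the log scale do depend on it, because a pseudocount is added to each FPKM value.

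**Figure D4:**
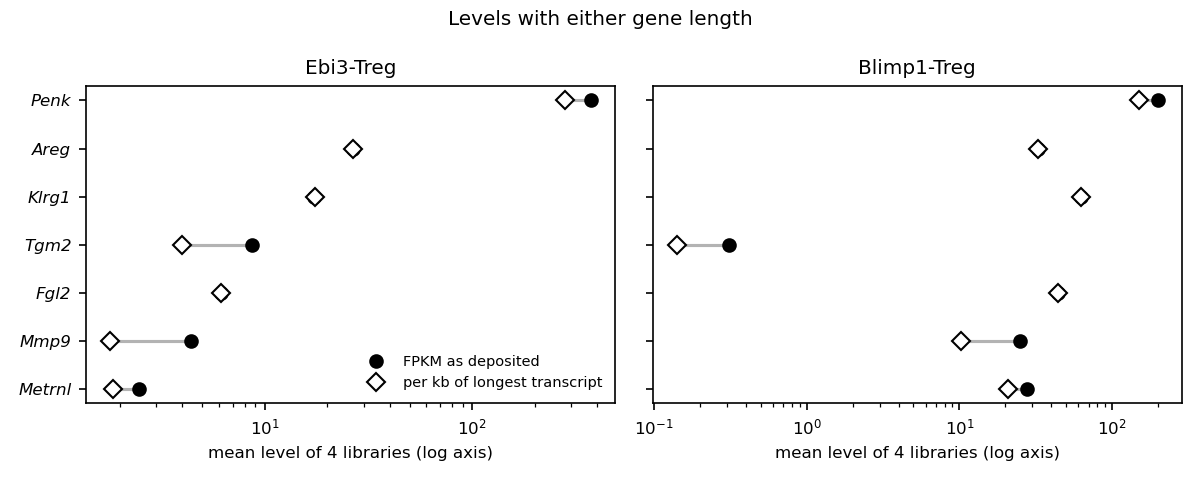
Mean level of each effector gene over 4 libraries (log axis) in Ebi3-Treg and Blimp1-Treg, as deposited FPKM (filled circles) and per kilobase of the longest transcript (open diamonds). Tgm2 and Mmp9 move furthest, and Fgl2, Klrg1 and Areg, which have 1 annotated transcript each, do not move.

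Genes that act with the effectors were read from lists around each of them, tested in the same limma fit over all 12273 genes, of which 3.37% were higher and 2.93% lower in Ebi3-Treg (13.5% and 8.94% with the replicate block). Of the 22 metalloproteinase and inhibitor genes around Mmp9, 5 were tested, and 1 was lower and 0 higher. That gene was Timp2, which encodes an inhibitor of metalloproteinases. Timp2 was at 69.6, 52.8, 95.6 and 94.0 FPKM in Ebi3-Treg 1 to 4 and at 292, 217, 240 and 249 FPKM in Blimp1-Treg 1 to 4, with a difference of -1.70 on the log2 scale (SE 0.19, adjusted p = 0.00254). The inhibitor was thus lower in the population in which Mmp9 was lower. Mmp25 (-1.55, adjusted p = 0.149), Mmp14 (-0.89, 0.208) and Mmp11 (1.07, 0.0638) did not pass. With the replicate block 1 gene of this list was higher (Mmp11, adjusted p = 0.0358) and 2 lower (Timp2 and Mmp25).

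The EGF family list around Areg held 18 genes, 7 of them tested, and 0 were higher or lower, with a median log2 fold change of -0.34 against 0.07 over all genes tested. With the block 2 were lower, Adam17 (adjusted p = 0.0248) and Erbb3 (0.0485). Adam17, the protease that sheds amphiregulin from the cell surface, was at 39.5 ± 10.1 FPKM in Ebi3-Treg libraries against 49.8 ± 10.4 FPKM in Blimp1-Treg libraries (SD, n = 4 each), a log2 fold change of -0.34 (adjusted p = 0.434). The receptor gene Egfr stayed at or below 0.569 FPKM, and the ligand gene Hbegf stood at -0.40 on the log2 scale (adjusted p = 0.244).

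Of 12 genes around Penk 4 were tested and 0 passed, with or without the block. Cpe, which encodes the carboxypeptidase that trims neuropeptides, was at 23.0 ± 1.41 FPKM in Ebi3-Treg libraries against 36.6 ± 15.6 FPKM in Blimp1-Treg libraries (SD, n = 4 each; log2 fold change -0.53, adjusted p = 0.504). The prohormone convertase gene Pcsk1 was at 0.169 to 2.56 FPKM in Ebi3-Treg, with 0.401 to 6.00 FPKM in Blimp1-Treg (log2 fold change -0.24, adjusted p = 0.791), and Pam (0.33, adjusted p = 0.554) and Oprm1 (-0.02, adjusted p = 0.987) did not pass. The other opioid precursor genes, Pdyn, Pomc and Pnoc, stayed at or below 1.08 FPKM.

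Around Klrg1, 9 of 18 genes were tested, and 1 was higher and 0 lower. Ptpn6, which encodes the phosphatase SHP-1, was at 354 ± 36.6 FPKM in Ebi3-Treg libraries against 208 ± 46.7 FPKM in Blimp1-Treg libraries (SD, n = 4 each), a difference of 0.79 on the log2 scale (SE 0.16, adjusted p = 0.0249). That call was lost without 6 of the 8 libraries in turn (Ebi3-Treg 2, 3 or 4, Blimp1-Treg 1, 3 or 4), with adjusted p up to 0.0973. It was also lost without the filter on low values and without the table term, with adjusted p up to 0.0733. Inpp5d, the gene of the phosphatase SHIP-1, which the KLRG1 tail is known to recruit, stood at -0.51 on the log2 scale (adjusted p = 0.546, and 0.0103 with the block), and Klrb1f at -0.68 (0.104, and 0.0211 with the block). Klrb1c had 0.53 (adjusted p = 0.515). The cadherin genes Cdh1, Cdh2 and Cdh4, whose products are ligands of KLRG1, reached at most 2.38 FPKM.

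The remaining families had few genes above the filter. Of 7 other transglutaminase genes 2 were tested and 0 passed, with Tgm4 at a log2 fold change of 0.24 (adjusted p = 0.782) and F13a1 at 0.08 (0.898). None of the 6 genes around Fgl2 was tested, the highest being Fcgr2b, which encodes the Fc receptor bound by FGL2, at 3.50 FPKM at most. Metrn stayed at or below 0.463 FPKM, and Kit, which encodes a receptor of meteorin-like, was at 4.14 to 24.2 FPKM in Ebi3-Treg, with 1.45 to 12.4 FPKM in Blimp1-Treg (log2 fold change 0.10, adjusted p = 0.976).

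Many other suppressive effectors were lower in Ebi3-Treg. Of 21 tested of 23 listed, 10 were lower, 1 (Ebi3) was higher and 10 did not pass, with a median log2 fold change of -0.98 against 0.07 over all genes tested, and the block gave 12 lower and 3 higher. Ebi3 is also one of the genes behind the sort, so the gates favoured its direction. Havcr2, Gzmb, Tigit and Il10 had the smallest p of this list. Their log2 fold changes were -3.40 (adjusted p = 0.00025), -5.93 (0.00031), -2.32 (0.000546) and -5.35 (0.00124), in this order. Ebi3-Treg libraries held at most 1.21 FPKM of Havcr2 and 2.26 of Gzmb, whereas every Blimp1-Treg library reached 11.7 and 34.5 or more. The Blimp1-Treg libraries thus carried both genes past the filter, and the size of these 2 differences is less certain than their direction. Chosen after its values were seen, Il1rn, which encodes the interleukin-1 receptor antagonist, was at 3.40 ± 1.41 FPKM in Ebi3-Treg libraries against 15.8 ± 5.21 FPKM in Blimp1-Treg libraries (SD, n = 4 each; log2 fold change -1.95, adjusted p = 0.0046). Lgals3, the gene of galectin-3, was chosen likewise and stood at -3.23 on the log2 scale (adjusted p = 0.00386). Tgfb1, which encodes the suppressive cytokine TGF-beta, stood at -0.11 (SE 0.38, adjusted p = 0.947) and was also named after its values were seen.

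The tissue repair list went both ways. Of 24 tested of 26, 5 were lower and 2 higher while 17 failed the test, with a median of -0.27, the block gave 10 lower and 4 higher, and 2 to 4 were lower with single libraries left out (2 without Ebi3-Treg 3, Ebi3-Treg 4 or Blimp1-Treg 3, 3 without Ebi3-Treg 1, Blimp1-Treg 2 or Blimp1-Treg 4). Il10 is in this list too. Maf, which encodes a transcription factor of Il10-producing T cells, was lower (17.2 ± 1.97 FPKM in Ebi3-Treg libraries against 65.5 ± 18.4 FPKM in Blimp1-Treg libraries, SD, n = 4 each; log2 fold change -1.83, adjusted p = 0.00252). Dgat2, which encodes an enzyme of triglyceride synthesis, was higher (15.9 ± 6.48 FPKM in Ebi3-Treg libraries against 2.63 ± 1.17 FPKM in Blimp1-Treg libraries, SD, n = 4 each; log2 fold change 2.1996, adjusted p = 0.00493). Lif was higher as well (2.503, adjusted p = 0.011). It passed the filter only through its Ebi3-Treg libraries, since no Blimp1-Treg library exceeded 0.671 FPKM. Il1rl1, the gene of the IL-33 receptor that drives Areg in tissue Tregs, was at 6.44 ± 3.35 FPKM in Ebi3-Treg libraries against 16.9 ± 10.03 FPKM in Blimp1-Treg libraries (SD, n = 4 each; log2 fold change -1.24, adjusted p = 0.0493), named after its values were seen. Its call was lost without any 1 library except Blimp1-Treg 4, with adjusted p up to 0.149. It was also lost without the filter, with a filter of 5 FPKM, without the table term, without both libraries numbered 1 or 2 and with voom, with adjusted p up to 0.212.

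**Figure D5:**
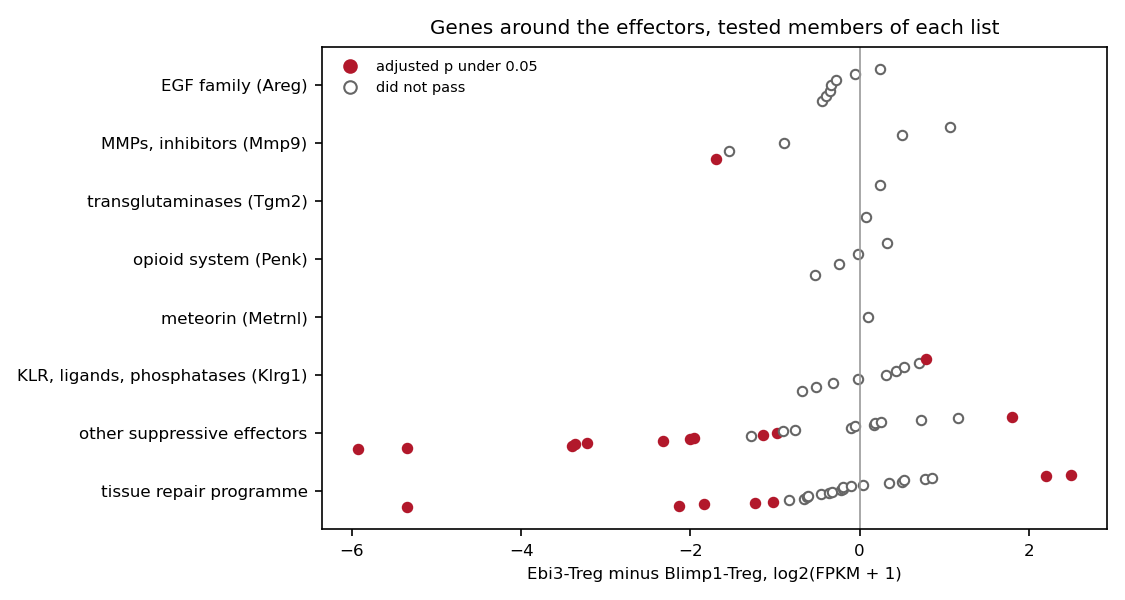
Log2 fold change of every tested gene in the lists around the effectors, Ebi3-Treg less Blimp1-Treg in log2(FPKM + 1), with filled points for an adjusted p under 0.05. Filled points cluster in the lists of other suppressive effectors (11 of 21, with Ebi3, a gene behind the sort, among them) and tissue repair (7 of 24), and 2 others are Timp2 and Ptpn6.

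Of the genes behind the sort, 8 were listed. Of the 7 tested, 1 was lower and 1 higher while 5 failed the test. Prdm1 was at 3.31 ± 1.004 FPKM in Ebi3-Treg libraries against 94.2 ± 29.6 FPKM in Blimp1-Treg libraries (SD, n = 4 each; adjusted p = 0.000155), and Ebi3 stood at 1.80 on the log2 scale (adjusted p = 0.00576). The gates favoured both differences, so they check the sort and are no separate result. The log2 fold changes of Foxp3 (-0.10, adjusted p = 0.886), Cd4 (-0.10, adjusted p = 0.896), Il2ra (-0.27, adjusted p = 0.669) and Thy1 (0.43, adjusted p = 0.375, and 0.0136 with the block) did not pass, and Il12a reached at most 1.49 FPKM.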

How the data were processed

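RNA of 8 sorted Treg samples was sequenced with the SMART-Seq v4 low-input kit, per the labels. Per the submitters' processing notes, the tools were HTSeq 0.6.1, TopHat2 2.0.12 and Bowtie2 2.2.3 and the build mm9, with no role, annotation or counting mode stated in what was used here. The authors deposited FPKM values, each library scaled on its own, in 2 tables (47709 and 47681 features). The 47069 Ensembl genes in both were kept, 46488 of them with a symbol from GENCODE M21. FPKM times the mean length of a gene's annotated transcripts (GENCODE M21) gave whole reads, within 0.01, in all 8 libraries for 79.9% of genes above 0, and for 64.5% of those with more than 1 transcript (0.981% with the union of exons). This gave depth and reads, including those of all 7 effector genes. No molecular identifiers were used, so reads are not independent molecules and read numbers cover counting error only.

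The model, in limma 3.58.1 (R 4.3.3), had terms for population and table and a variance trend. It was fitted to log2(FPKM + 1) of the 12273 genes that reached 1 FPKM in 4 or more libraries. P-values are two-sided and Benjamini-Hochberg adjusted over all of them, threshold 0.05, and the fit was tested on simulated data. The table term compares libraries within their own table, and levels set across tables carry that limit. Deviations from the population means correlated between same-numbered libraries (r = 0.62, 0.89, 0.53 and 0.54 for numbers 1 to 4). With the other number of the same table r was -0.27, -0.02, 0.56 and 0.61, so for numbers 3 and 4 the likeness did not follow the number. The replicate number was also fitted as a block. The effector genes, the lists and the tests were chosen with earlier results of these data known. Genes named were the effectors, the sort and reporter genes, the 4 genes of each list with the smallest p, the 2 closest profiles of each effector and markers of other cell types that varied. Genes given only by their highest value were named after their values were seen. Other settings tried were the pseudocount, the filter, the table term, the block, the variance trend, scaling, quantile normalisation, single libraries and numbers left out, and each table alone. Voom on recovered reads, and the tests between tables without both libraries of one number, were added after seeing the data. Some genes and sort markers are not reported here.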

Additional observations from a re-analysis of the deposited data

Results flagged for a closer look

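In 74 groups of 4 libraries, those of the effector genes and of the named genes of their lists, 6 values stood apart. Chance flags about 1 in 20 groups where values are normally distributed. FPKM without a log need not be, and the groups share libraries, so that rate is only a guide. Areg was at 59.3 FPKM in Ebi3-Treg 2, against 12.6 to 19.3 FPKM in the other 3 Ebi3-Treg libraries. Ebi3-Treg 1 was the highest of its group for Kit (24.2 FPKM, others 4.14 to 6.04), Klrb1c (5.72 FPKM, others 1.78 to 2.12) and Gzmb (2.26 FPKM, others at most 0.159). Klrb1c also stood apart in Blimp1-Treg 4 (2.63 FPKM, others 1.06 to 1.28). Inpp5d was lowest in Ebi3-Treg 2 (44.97 FPKM, others 105 to 108). These library values were not tested further.

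The contrast of Penk differed between the tables by -2.04 on the log2 scale when the replicate number was a block (limma adjusted p = 0.0385). Ebi3-Treg exceeded Blimp1-Treg in both replicates of the first table and in 1 of 2 of the second. The estimate ran from -3.12 to -0.96 over its alternatives, and every alternative but the block had an adjusted p above 0.05. Sex of the mice and table cannot be told apart here.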

How the results depend on the processing

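Fgl2, Klrg1, Metrnl, Mmp9 and Tgm2 kept their sign under every alternative run (20 for Tgm2, 21 for each of the others), Penk in 20 of 21 and Areg in 18 of 21. Where the groups did not overlap (all but Penk and Areg), most of these runs could not have changed the sign. Those were the runs with libraries left out, with each table alone and with another pseudocount. With single libraries left out the log2 fold changes ran from -2.84 to -2.47 (Fgl2), -2.42 to -1.67 (Klrg1), -3.14 to -2.85 (Metrnl), -2.61 to -2.03 (Mmp9), 2.62 to 3.09 (Tgm2), 0.29 to 1.30 (Penk) and -0.53 to 0.21 (Areg). Metrnl and Tgm2 were at -3.43 and 4.43 with a pseudocount of 0.1, at -3.48 and 4.83 with 0.01 and at -3.47 and 4.80 with voom, since a smaller pseudocount widens differences of low genes. Replicates 1 and 2 alone gave -3.11 for Fgl2 and -2.89 for Klrg1, and replicates 3 and 4 alone gave -2.26, -1.16, 0.037 (Areg) and -0.091 (Penk). The count of genes called between populations, 772, was 2752 with the replicate block, 420 without the filter, 441 without the table term, 486 with voom (8493 genes tested), 1970 and 1962 without both libraries numbered 1 or 2, 341 to 771 without single libraries (403 or fewer without replicate 3 or 4 of either population), 1347 in replicates 3 and 4, and 0 in replicates 1 and 2 (707 at an unadjusted p under 0.05 in limma). Of the list genes, each counted once, 19 were called (Ebi3, a gene behind the sort, among them), 36 with the block, 32 and 29 without both libraries numbered 1 or 2, 11 of 45 with voom, and 14 to 20 without single libraries. The interaction called 0 genes, and 13 with the block. The 1032 genes that differed between tables became 240 without the filter, 497 with voom, 7405 without both libraries numbered 1 and 51 to 3862 without single libraries (3862 without Ebi3-Treg 1, 51 without Blimp1-Treg 3, and 487 or fewer without the others except Blimp1-Treg 1). The cause of these shifts was not tested.

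The interaction of Metrnl (0.20) became -0.0079 and -0.040 with pseudocounts of 0.1 and 0.01, -0.17 without both libraries numbered 2 and -0.13 with voom, and that of Tgm2 (0.20) became -0.11, -0.31, -0.24 and -0.26. Without single libraries they ran from -0.14 to 0.54 and -0.38 to 0.79, and that of Areg from -0.44 to 1.42. The table difference of Fgl2 (0.07) was -0.012 with median-of-ratios scaling, -0.15 without both libraries numbered 2 and -0.15 to 0.22 without single ones. Those of Penk and Tgm2 were -0.55 without both libraries numbered 1 and -0.12 without both numbered 2, and -0.12 to 1.13 and -0.014 to 0.46 without single ones. Depth limits Tgm2 in Blimp1-Treg, with 4 to 19 reads a library.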
